A study of Mus musculus with 14 samples.

Results

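A set of 10 genes that mark fat cells was followed through 14 bulk RNA-seq libraries of mouse dorsal root ganglia (DRGs) and plexiform neurofibromas (PNs), the nerve tumors of neurofibromatosis type 1. The 10 genes, of 24062 in the count table, were those named *Adipoq*, *Lep*, *Retn*, *Cfd*, *Plin1*, *Plin4*, *Fabp4*, *Pparg*, *Lipe* and *Pnpla2*, and each symbol matched 1 row. They were chosen by gene symbol after fat transcripts had been seen among the genes that differ between PNs and control DRGs in these same libraries. For that reason the values of the 10 genes against controls are a description. How many of them the fit across all genes called against controls is given only beside the share called among all genes, and nothing is read from it. The choice did not name the contrast of fast-growing with slow-growing PNs, but it was made with the values of all 14 libraries known, so the p-values given for that contrast are not independent of it either.

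The 3 control libraries (DRG3, DRG4 and DRG5) were DRGs with their nerves from Nf1fl/fl mice, which carry floxed *Nf1* and no Cre. The 5 slow-growing PNs (1079, 1198A, 1202, 1203 and 1206) and the 6 fast-growing PNs (1053, 1071, 1179, 1191, 1214 and 1216) came from DhhCre;Nf1fl/fl mice, in which Cre acts in the Schwann cell lineage from the embryo on. All groups share the floxed allele and a mixed C57BL/6, I-129 and FVBN background, although the study's methods call the background largely C57BL/6. No animal in these groups was drugged. The study's methods place tissue collection at 9 months, although a figure legend gives 7 months, and call a PN slow where its volume on MRI changed by less than 5 mm3, and fast where it changed by more than 35 mm3, over 2 months. Each library is labelled as a separate sample, and neither sex nor batch was given per library.

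Libraries held between 9596773 and 17594164 assigned counts, so that 3 counts, taken as the floor for a gene with no reads, correspond to at most 0.313 CPM, the count scaled to the library's total. The whole-gene *Nf1* level was 129 to 227 CPM in controls and 225 to 294 CPM in PNs, and a count over the whole gene does not show the deletion. Neuron markers summed to 24.3 CPM in fast-growing PN 1191 and to at least 1448 CPM in every other library, so the main values of the fast-growing PNs are also given without that library. In bulk tissue, fewer fat cells and less RNA per fat cell cannot be told apart.

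White fat cells store triglyceride in 1 large droplet and release it as fatty acids when called upon. The droplet is coated by perilipins, which hold the lipases back until adrenergic signalling opens access to it. Adipose triglyceride lipase (*Pnpla2*) then takes off the first fatty acid and hormone-sensitive lipase (*Lipe*) the next, while Fabp4 carries fatty acids through the cytosol. PPARγ (*Pparg*) is the nuclear receptor that drives fat cell differentiation, and adiponectin (*Adipoq*), leptin (*Lep*), resistin (*Retn*) and adipsin (*Cfd*, complement factor D) are proteins that mouse fat cells secrete. Fat lies close to ganglia and nerves in the mouse, and brown fat lies along the cervical and thoracic spine.

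The genes are scattered over the genome. In mm10 coordinates, *Adipoq* lies at chr16:23146536-23158028 on the plus strand, *Lep* at chr6:29060220-29073877 on the plus strand and *Pparg* at chr6:115360951-115490399 on the plus strand. *Plin1* (chr7:79720218-79732903, minus strand), *Lipe* (chr7:25379527-25398710, minus strand) and *Pnpla2* (chr7:141455198-141460743, plus strand) share a chromosome but are far apart. *Retn* lies at chr8:3655770-3660110, *Cfd* at chr10:79890853-79892655, *Fabp4* at chr3:10204088-10208576 and *Plin4* at chr17:56100591-56109803. Exons of *Plin4* overlap those of *Hdgfl2*, and exons of *Lipe* those of *4732471J01Rik*, both on the opposite strand. As the counting is not stated to use strand, reads in those overlaps cannot be assigned with certainty.

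The members moved together across the PNs, so the promoters of 4 of them are printed. They are the 250 bases before the RefSeq start site (GRCm38.p6, the assembly behind mm10), 5′ to 3′ on the gene's strand, for the gene that serves as the yardstick (*Adipoq*), a hormone (*Lep*), a droplet coat (*Plin1*) and the lipase called between growth classes (*Pnpla2*). Capitals mark matches on either strand to a motif that was searched for. The motifs were the CCAAT box, the TATA box (TATAAA), the half-site of nuclear receptors (AGGTCA) and the core bound by C/EBP factors (TTGCNNAA).
Adipoq, chr16:23146286-23146535, plus strand: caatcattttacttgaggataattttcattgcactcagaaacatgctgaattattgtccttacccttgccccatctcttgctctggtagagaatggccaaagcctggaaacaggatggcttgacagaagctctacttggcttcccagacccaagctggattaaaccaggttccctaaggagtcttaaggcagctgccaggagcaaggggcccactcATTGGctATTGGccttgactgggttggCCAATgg
Lep, chr6:29059971-29060220, plus strand: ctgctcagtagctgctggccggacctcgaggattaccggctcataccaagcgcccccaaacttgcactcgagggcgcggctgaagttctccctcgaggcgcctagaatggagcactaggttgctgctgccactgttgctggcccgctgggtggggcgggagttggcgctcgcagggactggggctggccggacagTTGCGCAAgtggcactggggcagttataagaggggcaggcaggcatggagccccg
Plin1, chr7:79732777-79733026, minus strand: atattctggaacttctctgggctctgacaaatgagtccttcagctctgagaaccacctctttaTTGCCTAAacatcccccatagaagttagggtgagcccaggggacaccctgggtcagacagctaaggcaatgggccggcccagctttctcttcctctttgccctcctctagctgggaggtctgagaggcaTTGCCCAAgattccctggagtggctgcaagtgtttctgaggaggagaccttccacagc
Pnpla2, chr7:141454938-141455187, plus strand: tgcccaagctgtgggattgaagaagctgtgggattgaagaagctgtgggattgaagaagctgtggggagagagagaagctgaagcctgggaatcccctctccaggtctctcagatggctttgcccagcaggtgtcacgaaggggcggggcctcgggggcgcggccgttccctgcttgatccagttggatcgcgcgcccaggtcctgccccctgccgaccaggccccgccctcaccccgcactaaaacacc

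*Adipoq* held 3 CCAAT matches, at 34, 27 and 7 bases before the start, and no CpG at all. *Lep* held TTGCGCAA at 55 bases before its start. *Plin1* held 2 matches to TTGCNNAA, at 187 and 58 bases before the start, and *Pnpla2* held none of the motifs. Of 32851 RefSeq promoter windows of the same length, 33.8% held the CCAAT box, 9.56% the C/EBP core and 12.4% the TATA box, and 4607 held the half-site, so each match is common, and the direct repeat AGGTCANAGGTCA bound by PPARγ with its partner was in 0 of the 12 windows of 9 members and in 0.0335% of all windows. The observed over expected CpG ratio was 0.48 for *Pnpla2* and 0.61 for *Lep* but 0.055 for *Plin1*. No promoter was found for *Fabp4*.

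In controls, all 10 genes were detected in every library, and together they took 0.314 to 0.432% of all counts. Per kilobase of merged exon, *Cfd* was highest at 1010 ± 447 CPM (SD, n = 3), followed by *Fabp4* at 279 ± 16.4 CPM, *Adipoq* at 262 ± 54.0 CPM and *Pnpla2* at 125 ± 13.6 CPM, all per kilobase. *Cfd* stood above *Fabp4*, and *Adipoq* above *Pnpla2*, in every control library, while the ranges of *Fabp4* and *Adipoq* overlapped. The merged exons of *Fabp4* cover its whole gene span of 4489 bases, with no gap left for introns. Its level per kilobase may therefore be understated, and its place in this order is not settled. *Plin1* (43.0 ± 4.30), *Pparg* (34.6 ± 11.1), *Plin4* (33.6 ± 0.42), *Lipe* (29.3 ± 0.61) and *Retn* (28.0 ± 9.36 CPM per kilobase) formed a middle group in which, of the neighbours, only *Plin4* and *Lipe* did not overlap. *Lep* was lowest at 5.60 ± 3.54 CPM per kilobase.

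The 10 genes fell into 2 patterns among PNs. Most went from near control levels to almost nothing between one tumor and another, whereas *Lipe* and *Pnpla2* kept to a narrow range above 0 in the fast-growing PNs. *Adipoq*, which only fat cells express at high level, was at 366, 285 and 434 CPM in the controls DRG3, DRG4 and DRG5. In the slow-growing PNs it was at 29.1 (1079), 151 (1198A), 198 (1202), 0.82 (1203) and 309 CPM (1206). In the 6 fast-growing PNs the lowest value was 0.073, the median 4.08 and the highest 29.5 CPM. Slow-growing PN 1206 lay inside the control range. Both 1203 and 1079 lay within the range of the fast-growing PNs, 1079 at its upper end, and no fast-growing PN came near a control.

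**Figure D1:**
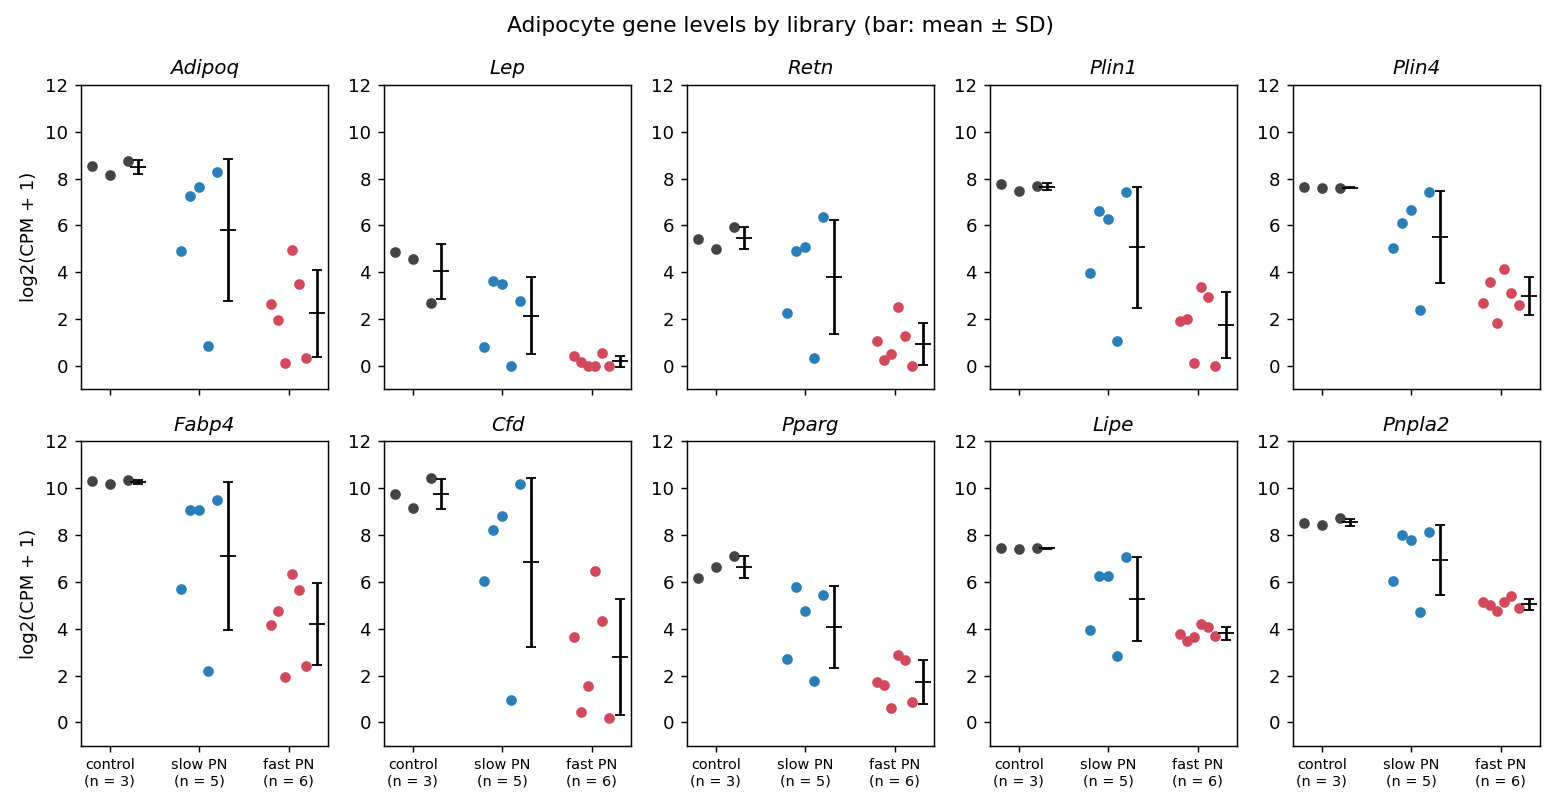
Levels of the 10 adipocyte genes as log2(CPM + 1) in each library, for 3 control DRGs, 5 slow-growing PNs and 6 fast-growing PNs, with bars for the mean ± SD. Controls sit close together, slow-growing PNs spread from control-like values to near 0, and all 6 fast-growing PNs are low, with *Lipe* and *Pnpla2* at a floor above 0.

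Of the other secreted proteins, *Cfd*, an activator of the alternative complement pathway, was at 852, 566 and 1377 CPM in the controls. It was at 64.9, 298, 446, 0.92 and 1149 CPM in slow-growing PNs 1079, 1198A, 1202, 1203 and 1206, and in fast-growing PNs its lowest, median and highest values were 0.13, 6.84 and 88.7 CPM. Slow-growing PN 1206 was thus above 2 of the 3 controls. *Retn*, which mouse fat cells secrete, showed this more strongly, with 42.1, 30.6 and 59.9 CPM in controls and 3.80, 28.6, 33.0, 0.27 and 82.1 CPM in the slow-growing PNs in the same order. PN 1206 exceeded every control for *Retn*, and the fast-growing PNs reached from 0 to 4.69 CPM, with a median of 0.75.

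*Lep*, the satiety hormone whose level follows the size of fat stores, was the least abundant member and behaved differently among the controls. It was at 28.0 and 22.9 CPM in DRG3 and DRG4 but at 5.42 CPM in DRG5, the control with the highest *Adipoq*. The slow-growing PNs had 0.76, 11.3, 10.4, 0 and 5.78 CPM, so that 3 of them reached at least the level of DRG5. Of the fast-growing PNs, 1179, 1191 and 1216 had 0 *Lep* counts and the others 2 to 6 counts. In 1191 this went with 390 *Adipoq* counts, and 0 *Lep* counts among them allow at most 0.0095 *Lep* reads per *Adipoq* read (exact 95% bound).

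The droplet coat proteins followed *Adipoq* closely. *Plin1*, the perilipin of mature fat cells, was at 218, 179 and 203 CPM in controls and at 14.6, 96.1, 77.2, 1.10 and 173 CPM in slow-growing PNs. Its fast-growing values ran from 0 through a median of 2.90 to 9.45 CPM. *Plin4*, which coats small nascent droplets and is also made in muscle, was nearly constant in controls at 196, 194 and 191 CPM, and was at 31.3, 67.0, 99.1, 4.21 and 169 CPM in slow-growing and 2.56 to 16.6 CPM in fast-growing PNs. For both genes every PN lay below every control.

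*Fabp4*, the fatty acid carrier that capillary endothelium and macrophages also express, was at 1267, 1173 and 1318 CPM in controls. It was at 50.3, 541, 542, 3.57 and 730 CPM in slow-growing PNs and at 2.78 to 80.2 CPM (median 21.6) in fast-growing PNs. *Pparg* was at 70.9, 99.5 and 136 CPM in controls, 5.54, 53.3, 26.2, 2.38 and 41.9 CPM in slow-growing PNs and 0.51 to 6.42 CPM (median 2.19) in fast-growing PNs. No PN reached the lowest control for either gene, and *Pparg* in 1206 was less than that in 1198A although *Adipoq* was higher in 1206.

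*Lipe* was at 176, 169 and 174 CPM in controls and at 14.2, 76.3, 76.1, 6.23 and 134 CPM in slow-growing PNs. In fast-growing PNs it stayed between 10.1 and 17.5 CPM, a range of 1.74-fold. In the same PNs *Adipoq* ran from 0.073 CPM in 1179 to 29.5 CPM in 1191. Its value in 1179 was 1 count, below the floor of 0.219 CPM in that library, so no fold range is given for *Adipoq*. *Pnpla2*, which is expressed in many tissues besides fat, was at 364, 344 and 422 CPM in controls and 64.6, 258, 220, 25.5 and 277 CPM in slow-growing PNs. It stayed between 25.9 and 41.6 CPM in the 6 fast-growing PNs, a range of 1.61-fold. Fast-growing PN 1179 shows the difference in raw reads, with 1 *Adipoq* and 1 *Plin1* count beside 158 *Lipe* and 354 *Pnpla2* counts. So does the fat-poor slow-growing PN 1203, with 9 *Adipoq* and 12 *Plin1* counts beside 68 *Lipe* and 279 *Pnpla2* counts. The order of the members per kilobase shifted accordingly, and *Pnpla2* was second in the fast-growing PNs (10.8 ± 1.82 CPM per kilobase, SD, n = 6), behind *Cfd* (22.0 ± 37.3) and with ranges that overlapped. The place of *Fabp4* in this order, too, is not settled, since its merged length leaves no gap for introns.

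**Figure D2:**
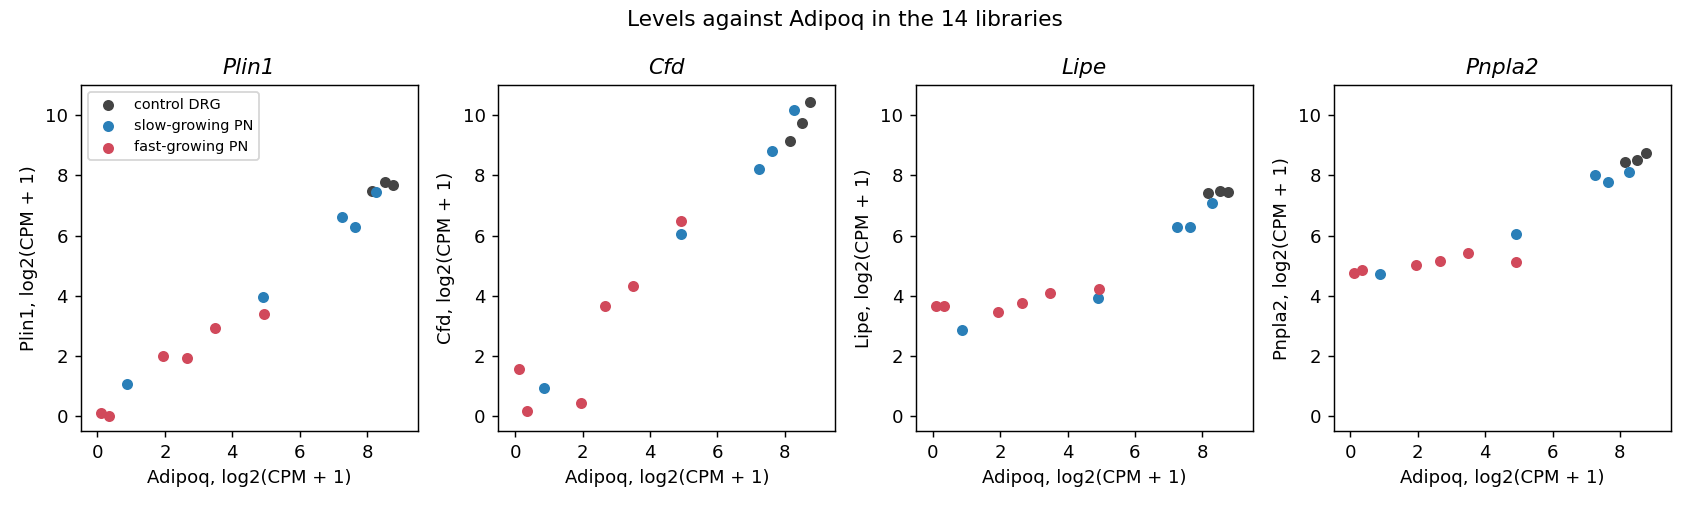
Level of *Plin1*, *Cfd*, *Lipe* and *Pnpla2* against that of *Adipoq*, each as log2(CPM + 1), with 1 point per library in all 14 libraries. *Plin1* and *Cfd* fall with *Adipoq* to near 0, while *Lipe* and *Pnpla2* level off at about 10 to 18 and 26 to 42 CPM in the fast-growing PNs.

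Against the 3 controls, the 11 PNs gave log2 fold changes between -1.67 ± 1.38 (SE) for *Retn* and -2.96 ± 0.98 for *Pparg*. Each SE of an edgeR fold change is the absolute log2 fold change over the square root of the F statistic. It restates the test and was not estimated apart from it. The median over the 10 genes was -2.41, beside 0.095 over all 16283 genes tested. *Pparg* and *Lipe* (-2.32 ± 0.75) were the 2 of 10 below the adjusted p of 0.05 in edgeR, where 13.4% of all genes were called lower. For 6 of the 10 genes every PN lay below every control, which held for 9.13% of all genes. Since the choice of the genes rests on this contrast, nothing is read from these counts.

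In slow-growing PNs alone, the log2 fold changes against controls ran from -0.63 ± 1.13 for *Retn* to -2.04 ± 0.83 for *Pparg*, with a median of -1.48, beside 0.038 for all genes. None of the 10 was called by edgeR, where 7.13% of all genes were called lower. One of the 10 had an unadjusted p under 0.05, beside 4765 of all 15714 genes. DESeq2, limma-voom and limma-trend also called 0 of the 10, and 22.5%, 11.7% and 10.7% of all genes in either direction. Every slow-growing PN lay below every control for 6 of the 10 genes, and for 12.0% of all genes.

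In fast-growing PNs, the log2 fold changes against the same controls ran from -3.61 ± 0.15 for *Pnpla2* and -3.78 ± 0.18 for *Lipe* to -6.88 ± 0.84 for *Lep*. The median was -5.34, beside 0.019 for all genes. All 10 were called lower and all 10 had every fast-growing PN below every control, where 16.7% of genes were called lower and 14.9% had no overlap. These counts, too, restate the choice of the genes, and nothing is read from them. *Adipoq* was at -5.56 ± 1.18, *Plin1* at -5.85 ± 1.01, *Cfd* at -5.58 ± 1.48, *Fabp4* at -5.46 ± 0.90, *Pparg* at -5.22 ± 0.66, *Retn* at -5.16 ± 0.92 and *Plin4* at -4.66 ± 0.47. With a skeletal muscle score as covariate the log2 fold changes ran from -3.58 ± 0.39 (*Pnpla2*) to -8.73 ± 6.11 (*Cfd*), with larger standard errors, and 2 of the 10, *Lipe* and *Pnpla2*, were called, while the share called among all genes in either direction dropped from 31.4% to 1.03%. The muscle genes summed to 11540 to 41026 CPM in controls and 398 to 8149 CPM in fast-growing PNs, without overlap. The score therefore cannot be told apart from group here, and a call lost with it does not show a part of muscle. Without 1191 they ran from -3.63 ± 0.17 (*Pnpla2*) to -7.23 ± 1.28 (*Cfd*), with *Adipoq* at -6.68. The slow and fast comparisons share their control libraries.

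**Figure D3:**
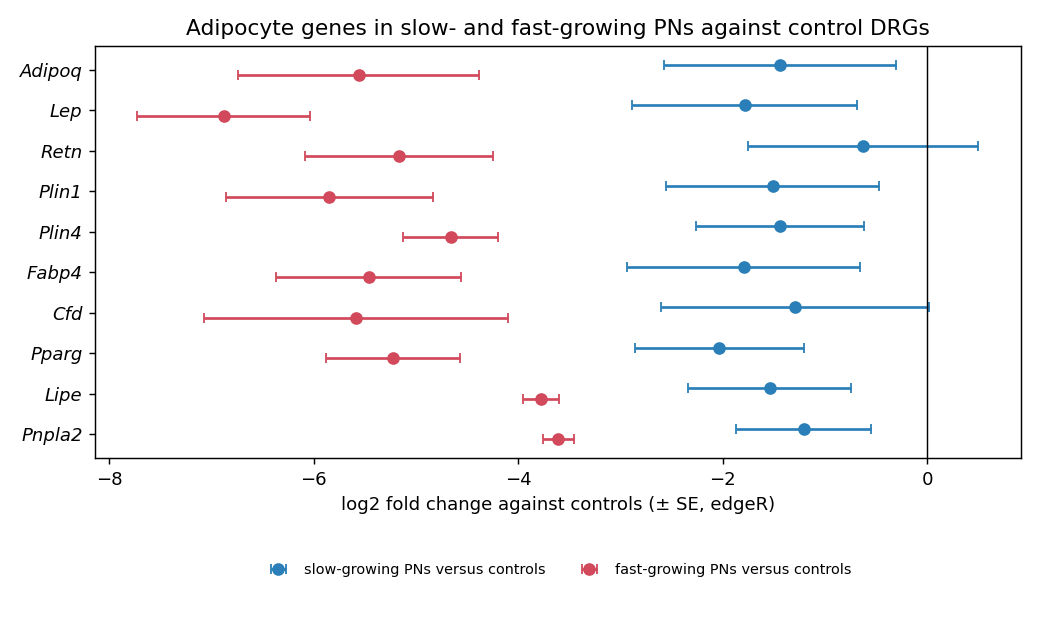
Log2 fold change ± SE (edgeR) of the 10 genes in 5 slow-growing and in 6 fast-growing PNs, each against the same 3 controls. SE is the absolute log2 fold change over the square root of the F statistic. Fast-growing PNs lie between -3.61 and -6.88 and slow-growing PNs between -0.63 and -2.04, and the error bars are shortest for *Lipe* and *Pnpla2* in fast-growing PNs.

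Fast-growing PNs had lower fitted levels than slow-growing PNs for each of the 9 genes that passed the expression filter (*Lep* did not), and 1 of the 9 was called. *Pnpla2* was at 169 ± 116 CPM (SD, n = 5) in slow-growing and 32.6 ± 5.51 CPM (n = 6) in fast-growing PNs, which the fit put at a log2 change of -2.38 ± 0.50 with an adjusted p of 0.0484 (edgeR quasi-likelihood test, Benjamini-Hochberg over 15465 genes), where 0.466% of all genes were called lower. Each of the 6 fast-growing PNs was below 4 of the 5 slow-growing PNs and above the fifth, 1203. The other 8 genes had log2 fold changes from -2.22 ± 0.61 (*Lipe*) to -4.51 ± 1.22 (*Retn*) and adjusted p from 0.0562 (*Plin4*) to 0.162 (*Cfd*) in the same edgeR fit. The median over the 9 was -3.64, beside -0.033 over all genes, and no member had all fast-growing below all slow-growing PNs, which 0.905% of genes had.

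Each of the 10 genes, *Lep* included, was also tested on its own as log2(CPM + 1). With every one of the 462 ways to divide the 11 PNs into 5 and 6 enumerated (exact permutation, two-sided, smallest possible p 0.0043), p was 0.030 for *Pnpla2*, *Plin4* and *Pparg*, 0.035 for *Plin1* and *Lep*, 0.043 for *Retn* and 0.048 for *Adipoq*. For *Cfd* (p = 0.061), *Fabp4* (p = 0.082) and *Lipe* (p = 0.104, exact permutation) the difference did not pass 0.05. These 10 p-values are unadjusted. Without 1191, which was left out after its values had been seen, the exact permutation p was 0.016 for *Pparg*, 0.032 for *Retn* and *Plin1*, 0.040 for *Adipoq*, *Plin4* and *Cfd* and 0.048 for *Pnpla2*, but 0.056 for *Lep*, 0.071 for *Fabp4* and 0.135 for *Lipe*.

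The call moved with the tool and with the libraries included. *Pnpla2* had an adjusted p of 0.0503 with RLE factors, 0.0936 with limma-voom and 0.000172 with DESeq2, which called all 9 genes and 10.2% of all genes in either direction, where edgeR called 1.27% (0.000172 to 0.129 over all alternatives, edgeR unless named). Its log2 fold change stayed between -1.91 and -2.66 in these alternatives. Without slow-growing PN 1203, in which the 10 genes summed to 45.1 CPM, 8 genes were called, and without 1198A 2 genes, while leaving out any one of 1079, 1202, 1206, 1053, 1071, 1179, 1191, 1214 or 1216 gave 0 called members. The share of all genes called moved as well, to 3.70% without 1203, 7.65% without 1198A and 0.0128% to 2.43% without any one of the others, so the count of members is not read apart from it. With a skeletal muscle score as covariate, *Pnpla2* kept its call at 0.0414 (edgeR).

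Within PNs the 10 genes rose and fell together. Over the 11 PNs, log2(CPM + 1) of *Adipoq* had a Pearson r of 0.99 with *Plin1*, 0.98 with *Fabp4*, 0.97 with *Cfd* and 0.96 with each of *Retn*, *Plin4* and *Pparg*, each with a permutation p of at most 4e-05 (100000 resamples, smallest possible 1e-05). It was 0.92 with *Pnpla2* (permutation p = 2e-05), 0.90 with *Lipe* (6e-05) and 0.86 with *Lep* (0.00057). Spearman's rho ran from 0.79 for *Lep* (permutation p = 0.00589) to 0.98 for *Fabp4* (2e-05). Without 1206 and 1202, the libraries farthest from the median, r was 0.98 for *Plin1* and at its lowest 0.76 for *Lep*.

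Inside 1 growth class the relation depended on the gene and on the measure. Over the 6 fast-growing PNs alone, r with *Adipoq* was 0.98 for *Pparg* (exact permutation p = 0.00278) and 0.97 for *Plin1* (exact p = 0.00556), but 0.80 for *Lipe* (exact p = 0.0625), 0.78 for *Pnpla2* (exact p = 0.0583) and 0.36 for *Lep* (exact p = 0.458). By Spearman's rho over the same 6 PNs, the exact permutation p was 0.00278 for *Pparg*, 0.0167 for *Fabp4* and 0.0333 for *Plin1*. It was 0.0583 for each of *Retn*, *Plin4*, *Cfd*, *Lipe* and *Pnpla2*, and 0.45 for *Lep*. Neither correlation was computed without 1191, since none was taken over fewer than 6 libraries. In the same 11 PNs, the mean log2 level of 15 skeletal muscle genes had r = -0.080 with *Adipoq* (permutation p = 0.81), and 12 relations were computed in all.

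The genes most like each member over the 11 PNs, by Pearson r of log2(CPM + 1) among 16283 tested genes other than the members, came from the fat lists for 5 of the 10 members. For *Adipoq* they were *Cidec* (r = 0.996), a droplet fusion protein, *Pck1* (0.978), which feeds glycerol synthesis in fat, *Cyp2e1* (0.977), *Adrb3* (0.976), the fat cell adrenergic receptor, and *Lpl* (0.975), which frees fatty acids from lipoproteins. *Cidec* was also first for *Plin1* (0.989), *Adrb3* for *Plin4* (0.982), *Pck1* for *Fabp4* (0.984) and *Thrsp*, a regulator of fat synthesis, for *Pparg* (0.980). *Tob1* was first for both *Lep* (0.990) and *Pnpla2* (0.987), *Ttpa* for *Retn* (0.996), *Tshr* for *Cfd* (0.985) and *Mgst1* for *Lipe* (0.993). These r are descriptions, since all genes measured in a library share that library's depth and dissection.

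Ratios of reads within 1 library do not depend on normalization, and they were taken in the 10 libraries with at least 50 *Adipoq* counts. *Plin1* gave 0.32 to 0.65 reads per *Adipoq* read, *Retn* 0.11 to 0.27 and *Cfd* 1.85 to 3.72, although *Adipoq* itself went from 95 to 4265 counts. These ranges do not extend to the libraries below the cut. Fast-growing PN 1071 had 42 *Adipoq*, 44 *Plin1* and 384 *Fabp4* counts but 5 *Cfd* counts, and 1179 had 27 *Cfd* counts beside 1 *Adipoq* count. *Retn* was highest relative to *Adipoq* in 1206 at 0.27, and its 3 control ratios of 0.11 to 0.14 were lower than those in 1198A, 1202 and 1206, which were 0.17 to 0.27, while 1079 (0.13) lay inside the control range. Of the fast-growing PNs, 1053 (0.20) and 1191 (0.16) lay above the control range and 1214 (0.14) inside it, with exact 95% intervals of 0.12 to 0.33 in 1053 and 0.12 to 0.21 in 1191 that reached into it. *Pnpla2* gave 0.97 to 1.21 in controls and up to 6.46 in fast-growing PN 1053, and *Lipe* 0.40 to 0.59 in controls and 2.37 in 1053. Among slow-growing PNs *Pnpla2* was above the controls in 1079 (2.22) and 1198A (1.71), but not in 1202 (1.11) or 1206 (0.90). *Lipe* was at 0.38 to 0.51 in these slow-growing PNs. In 1191, the fast-growing PN with the most *Adipoq*, *Lipe* was at 0.59 and *Pnpla2* at 1.15 reads per *Adipoq* read, close to the controls.

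**Figure D4:**
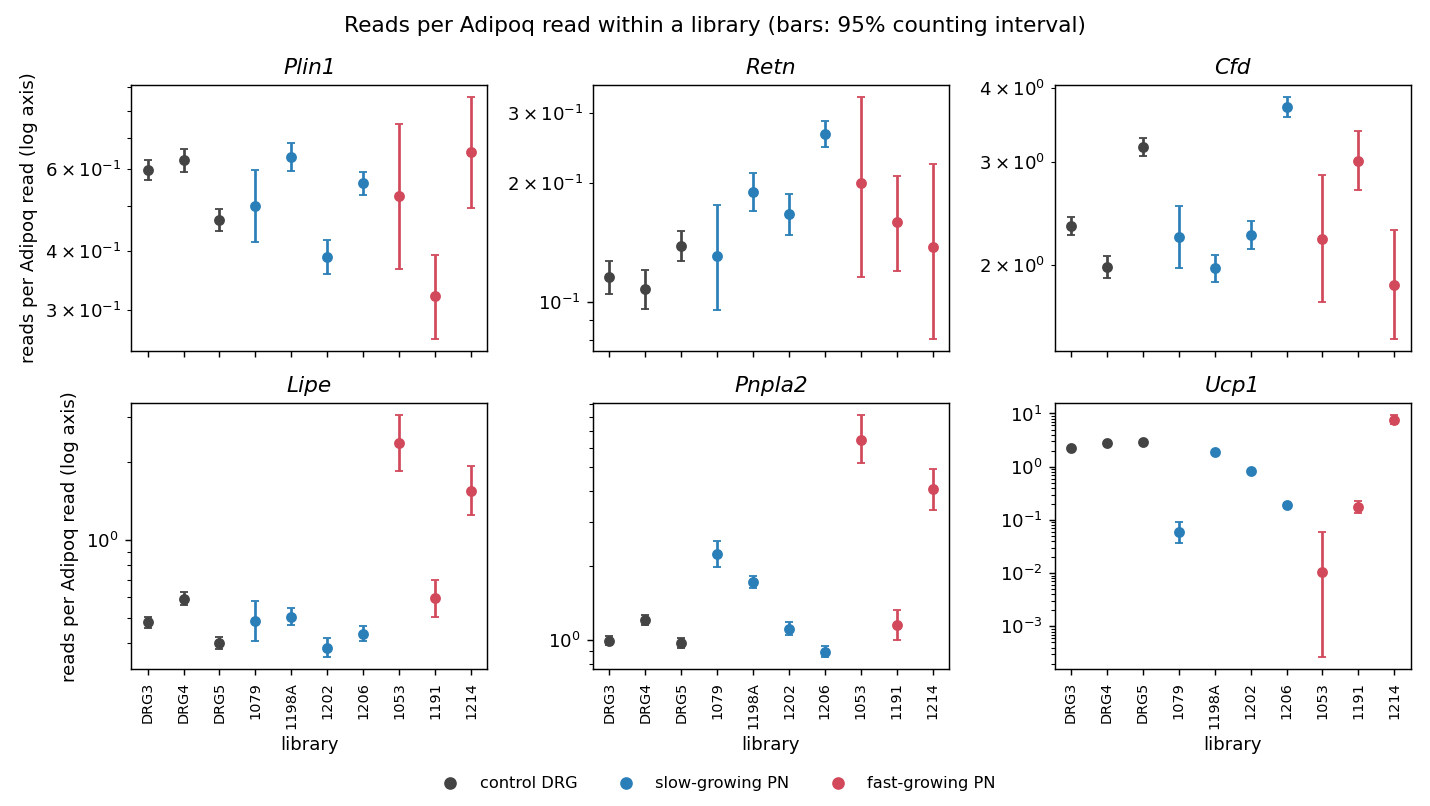
Reads of 6 genes per *Adipoq* read in the 10 libraries with at least 50 *Adipoq* counts, on log axes, with exact 95% intervals for counting error only. *Plin1*, *Retn* and *Cfd* stay within about 3-fold, and *Ucp1* spreads from 0.011 to 7.69. *Lipe* and *Pnpla2* rise in fast-growing PNs 1053 and 1214, and *Pnpla2* also in slow-growing PNs 1079 and 1198A.

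*Lep* per *Adipoq* read split the controls, with 0.077 in DRG3 and 0.080 in DRG4 but 0.012 in DRG5, whose exact 95% interval of 0.0093 to 0.016 lay apart from both. The slow-growing PNs 1198A and 1202 were at 0.075 and 0.053, and 1206 was at 0.019. *Ucp1*, the uncoupling protein of brown fat, gave 2.27 to 2.93 reads per *Adipoq* read in controls, 1.88 in 1198A, 0.82 in 1202, 0.19 in 1206 and 0.060 in 1079, although 1206 had the most *Adipoq* of these PNs. In fast-growing PN 1214 it gave 7.69 (1061 *Ucp1* and 138 *Adipoq* counts), and in 1053 0.011 (1 and 95 counts).

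The counts of called genes in the lists that follow stand beside the same shares of all genes, 13.4% called lower and 12.9% higher in PNs against controls, 7.13% lower in slow-growing PNs, 16.7% lower and 14.8% higher in fast-growing PNs, and 0.466% lower in fast-growing against slow-growing PNs. With the muscle score, which left 1.03% of all genes called in fast-growing PNs against controls, the lower calls there fell to 2 of 21 genes of lipolysis, 3 of 20 of uptake and synthesis, 1 of 15 regulators, 0 of 10 further fat cell genes and 1 of 9 brown fat genes.

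The other genes of lipolysis and droplet handling moved in 1 direction where they passed the test. Of 21 such genes, 8 were lower and 0 higher in PNs than in controls (edgeR), and the 8 became 4 without DRG5, 13 without 1206 and 5 with the muscle score. In slow-growing PNs 3 were lower, and 0 without any one of DRG4, DRG5, 1079 or 1202. In fast-growing PNs 15 were lower. In fast-growing against slow-growing PNs 0 were called by edgeR and 7 by DESeq2, and 14 had an unadjusted p under 0.05, beside 3155 of all 15465 genes. *Plin2*, a droplet coat found in most cells, had 222 ± 44.4 CPM in controls against 46.7 ± 21.3 CPM in PNs (log2 fold change -2.26 ± 0.32, adjusted p = 0.000183 in edgeR). *G0s2*, the protein inhibitor of the Pnpla2 lipase, was at 88.8 ± 10.1 and 10.7 ± 10.6 CPM (-3.07 ± 0.56). *Adrb1*, an adrenergic receptor that starts lipolysis, was at 5.82 ± 1.42 and 0.81 ± 0.51 CPM (-2.84 ± 0.43). The median over the list was -1.30.

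Of 20 genes of fatty acid uptake and triglyceride synthesis, 12 were lower in PNs, 0 in slow-growing and 18 in fast-growing PNs against controls, with 0 higher. The 12 rested on each control library, becoming 4 without DRG3, 3 without DRG4 and 3 without DRG5, and it was 5 with the muscle score. *Slc2a4*, the insulin-regulated glucose transporter of fat and muscle, went from 94.3 ± 17.4 CPM in controls to 12.7 ± 12.9 CPM in PNs (log2 fold change -2.91 ± 0.66). *Gpam*, which adds the first fatty acid to glycerol phosphate, fell by 1.07 on the log2 scale, and *Gpihbp1*, which anchors the Lpl protein on capillaries, was at -2.30, and both calls were lost without DRG5. One gene of the list was lower in fast-growing than in slow-growing PNs, *Acsl1*, which activates fatty acids with coenzyme A (-2.50 ± 0.53, adjusted p = 0.0484, edgeR).

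Among 15 regulators of fat cell identity, 4 were lower in PNs and 0 higher, 2 were lower in slow-growing PNs, and 7 were lower and 1 higher in fast-growing PNs, the higher call being lost without DRG4. *Cebpb*, an early factor of fat cell differentiation, went from 7.80 ± 2.07 CPM in controls to 0.88 ± 0.48 CPM in PNs (log2 fold change -3.14 ± 0.40), *Ppara*, the receptor that drives fatty acid oxidation, changed by -2.07 ± 0.38 and *Ppargc1b*, a coactivator of mitochondrial genes, by -2.49 ± 0.38. *Ppargc1b* was also lower in fast-growing than in slow-growing PNs, at 2.93 ± 0.68 against 7.27 ± 2.08 CPM (-1.31 ± 0.24, adjusted p = 0.0449, edgeR).

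A list of 10 further fat cell genes gave 1 lower call in PNs (*Nampt*, the enzyme of NAD salvage, at -0.66 ± 0.16), 0 in slow-growing and 8 in fast-growing PNs. The count in PNs was 0 without DRG4 or DRG5, 2 without 1202, 3 without 1198A and 6 without 1206. It was also 3 with DESeq2, 5 with limma-trend, 8 with limma-voom, 8 in 1 fit of all libraries and 0 with the muscle score. *Thrsp* had 1188 ± 149 CPM in controls against 134 ± 217 CPM in PNs (-3.16 ± 1.19, adjusted p = 0.0637, edgeR) and *Pnpla3*, a lipase relative of *Pnpla2*, at -1.95 ± 0.73 (adjusted p = 0.0618, edgeR). *Rbp4*, the retinol carrier, was lower in fast-growing than in slow-growing PNs (-4.30 ± 0.84, adjusted p = 0.0449, edgeR). Together with *Pnpla2*, *Acsl1* and *Ppargc1b* it was one of 4 genes, among the members and the fat lists, called in that comparison. These 3 calls were lost, as that of *Pnpla2* was, without any one of 1079, 1202, 1206, 1053, 1179, 1191, 1214 or 1216, and with limma-voom.

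The receptors of these hormones did not share 1 direction. *Adipor1* was higher in PNs at 126 ± 12.8 against 89.1 ± 8.51 CPM (0.48 ± 0.12, adjusted p = 0.00917, edgeR), a call lost without DRG5. *Adipor2* was lower (-1.15 ± 0.38), a call lost without any one of the 3 controls, 1179, 1214 or 1216. With the muscle score, 1 of the 4 receptors was still called lower, which need not be *Adipor2*. *Cdh13*, which binds large adiponectin forms, was at -1.31 ± 0.50 with an adjusted p of 0.0692 (edgeR) and was lower in fast-growing PNs against controls (-1.80 ± 0.33). Among the relatives of *Fabp4*, *Fabp3*, the carrier of muscle and brown fat, was lower (-3.35 ± 0.59, not called with the muscle score), *Fabp5* was at -0.59 ± 0.29 without a call (-0.78 ± 0.26 in fast-growing PNs, adjusted p = 0.0495, edgeR, and 0.0508 with RLE factors) and *Fabp7*, which glia express, was at 0.026 ± 0.60, a value that turned negative with RLE factors, with other tools and without some libraries. Of 6 tested progenitor markers, *Pi16* was lower in PNs (-1.63 ± 0.52), a call lost without any one of the 3 controls and with the muscle score. *Ly6a* (-0.82 ± 0.36) and *Pdgfra* (0.91 ± 0.40) were not called, and the count of higher calls in PNs went from 0 to 2 without 1203. Against controls, 3 markers, *Pdgfra* among them, were higher in fast-growing PNs, or 1 without DRG4 and 0 with the muscle score. All 9 brown fat genes were lower in PNs, and those of lowest p were *Cox7a1* (-4.72 ± 0.66), *Cox8b* (-4.64 ± 0.98) and *Cpt1b* (-3.88 ± 0.71), with 4 and 9 of them in slow-growing and fast-growing PNs. The 9 in PNs became 4 without DRG5 and 4 with the muscle score, and the 4 in slow-growing PNs became 1 without DRG4 or DRG5, 2 without 1079, 1202 or 1206, and 7 without 1198A.

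Markers of other tissues also differed between groups, and among PNs muscle transcripts were high in libraries other than those rich in fat, except for 1202, which had both. The 15 skeletal muscle genes summed to 11540 to 41026 CPM in controls, 70.3 to 13333 CPM in slow-growing and 398 to 8149 CPM in fast-growing PNs, and 8 of 15 were lower in PNs, among them *Tnni2* (-4.00 ± 1.09), *Mb* (-3.90 ± 1.13) and *Mylpf* (-3.87 ± 1.15). The count of 8 rested on single controls, becoming 1 without DRG4 and 0 without DRG5. Of the 15, 0 were lower in slow-growing PNs, where 4 had an unadjusted p under 0.05 in edgeR, and 13 in fast-growing PNs against controls, or 7 without DRG5. The fat-rich slow-growing PNs 1198A and 1206 had 70.3 and 152 CPM of muscle transcripts, and the fat-poor 1203 had 4601 CPM. The summed members were at 1581 CPM in 1198A, 3071 CPM in 1206 and 45.1 CPM in 1203.

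**Figure D5:**
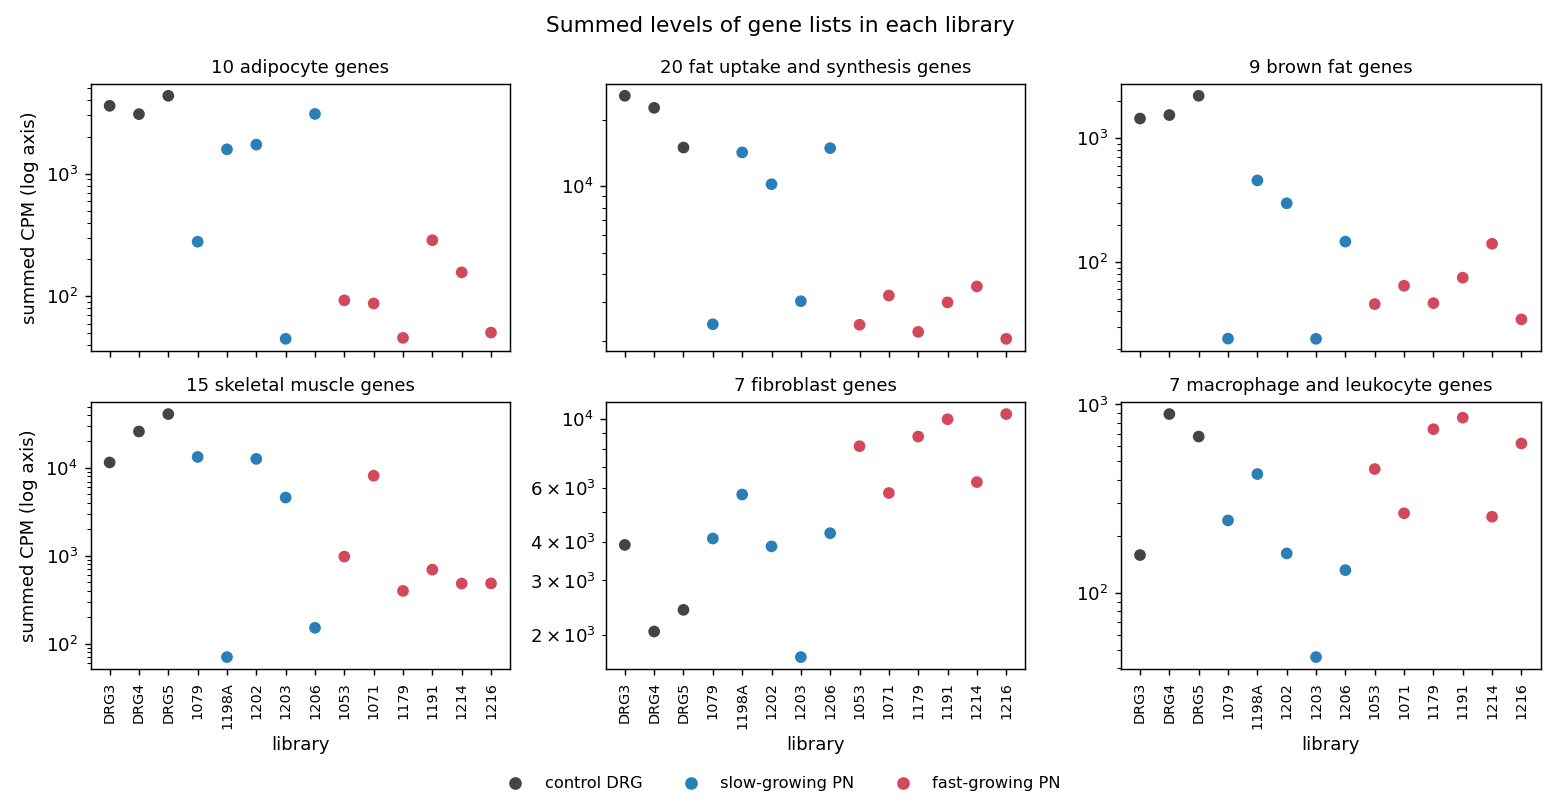
Summed CPM per library of the 10 adipocyte genes and of 5 other lists, on log axes, coloured by group. Among PNs, fat transcripts are highest in 1198A, 1202 and 1206, muscle transcripts in 1079, 1202, 1071 and 1203, and fibroblast transcripts are highest in the 6 fast-growing PNs, from 5760 to 10374 CPM.

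The 7 fibroblast genes summed to 2051 to 3910 CPM in controls, 1694 to 5695 CPM in slow-growing and 5760 to 10374 CPM in fast-growing PNs, and 5 of 7 were higher in fast-growing PNs than in controls, or 3 without DRG4 and 0 with the muscle score. In all PNs against controls, *Lum* (2.03 ± 0.76), *Col3a1* (1.45 ± 0.59) and *Dcn* (1.08 ± 0.48) were not called, although they were among the 5 in fast-growing PNs. The count of higher calls in all PNs was 0. It became 4 without 1203, 1 without 1202, 2 with DESeq2 and 2 in 1 fit of all libraries. Among 8 Schwann cell genes 3 were higher in PNs (1 with the muscle score), among them *Erbb3* (2.15 ± 0.45) and *Sox10* (1.29 ± 0.39, not called without DRG4 or DRG5), and the sum was 4230 to 12911 CPM in controls, 7144 to 20367 CPM in slow-growing and 5566 to 9997 CPM in fast-growing PNs. Of 8 endothelial genes 3 were lower in PNs (1 without DRG5, 5 without 1206), *Kdr* (-1.84 ± 0.30), *Egfl7* (-1.57 ± 0.38) and *Esam* (-1.04 ± 0.32, not called without any one of the controls), with sums of 365 to 493, 104 to 468 and 144 to 340 CPM in the 3 groups.

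The 7 measured macrophage and leukocyte genes summed to 159 to 889 CPM in controls, 45.8 to 428 CPM in slow-growing and 254 to 851 CPM in fast-growing PNs. Of the 7, 0 were called in PNs against controls, but 1 was called higher without 1203 and 1 with DESeq2. The changes were 3.05 ± 1.18 for *Trem2*, -1.66 ± 0.81 for *Ptprc* and -0.89 ± 0.64 for *Cd68*. *Trem2* was higher in fast-growing PNs against controls (3.61 ± 0.70). None of the 10 neuron genes was called (*Snap25* 1.17 ± 0.95, *Pou4f1* 1.08 ± 0.98, *Isl1* 0.82 ± 0.90), and their sums were 1448 to 5452, 2487 to 11774 and 24.3 to 6519 CPM. The tested erythroid gene *Alas2* was at -1.24 ± 0.49 without a call and was lower in fast-growing PNs against controls (-1.90 ± 0.27), and the 5 erythroid genes summed to 55.2 to 103, 16.7 to 116 and 14.1 to 32.1 CPM. With the muscle score, *Cdh13*, *Alas2* and *Trem2* lost their calls in fast-growing PNs, where 165 genes were called in all, against 5043 without the score. The part of these tissues in the levels of the 10 fat genes was not tested. The fit with the muscle score cannot test it in fast-growing PNs against controls, where the muscle sums of the groups did not overlap.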

How the data were processed

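RNA was amplified with the Ovation v2 kit from total RNA of 3 control DRGs, 5 slow-growing and 6 fast-growing PNs. Per the labels and the submitters' processing notes, the authors called bases with CASAVA 1.4, checked reads with FastQC 0.11.0, aligned them with TopHat2 2.0.9 to mm10, counted them per gene with featureCounts 1.5.2 and normalized with edgeR 3.16.5. The authors deposited raw counts of 24062 genes, and log2 values after TMM normalization of 16382 genes, which served only an alternative fit. All columns matched a labelled sample.

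From the counts, CPM used TMM factors over all 14 libraries. Each comparison was fitted on its own libraries with edgeR 4.0.16 (R 4.3.3): filterByExpr, TMM, glmQLFit and glmQLFTest, Benjamini-Hochberg over all genes tested, called at an adjusted p under 0.05. The SE beside an edgeR log2 fold change is its absolute value over the square root of the quasi-likelihood F statistic, since that test gives no standard error. Each fit was tested on simulated counts. Alternatives were RLE and upper-quartile factors, DESeq2 1.42.0, limma 3.58.1 (voom on counts, trend on the log2 values), no filter beyond 1 count, 1 fit of all libraries, a skeletal muscle score, an adjusted p under 0.01 and each library left out. Permutation tests used scipy 1.17.1 and log2(CPM + 1), with pseudocounts 0.5 and 5 as alternatives. Their p-values were not adjusted over the 10 genes, since the genes and lists were chosen with earlier results of these data known. Exon lengths and positions came from GENCODE, promoters from RefSeq (GRCm38.p6). No 2 of the 91 library pairs held identical counts. The p-values measure the spread between these samples. Counting intervals cover counting error only, since reads of amplified RNA are not independent molecules.

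The genes named from each list were the 3 with the lowest p in PNs against controls and every one called in fast-growing against slow-growing PNs, except 1 gene that is not reported here. For each member the gene of highest r was named, and for *Adipoq* the 5 highest.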

Additional observations from a re-analysis of the deposited data

Results flagged for a closer look

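For 3 of the 10 genes, fast-growing PN 1191 stood apart from the other 5 fast-growing PNs in CPM. *Cfd* was at 88.7 CPM there, beside a median of 1.97 CPM in the others, and the gap to the next library took 0.788 of the whole range. For *Retn* (4.69 CPM beside a median of 0.44) the gap took 0.699, and for *Adipoq* (29.5 beside 2.87 CPM) 0.654. Chance marks about 1 in 20 groups in this way, and 20 were examined, each of them 1 gene in 1 group of libraries. The 3 marks fall in the same library and on genes that moved together over the PNs, so they are not separate events. In the same library the 10 neuron genes summed to 24.3 CPM, whose part in these values was not tested.

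*Pnpla2* was marked because its level differed between the PNs of different growth rate by the test of that difference itself, with a log2 fold change of -2.38 in fast-growing against slow-growing PNs.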

How the results depend on the processing

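No member's fold change turned positive in any of the 4 comparisons under any alternative run. The percentages here are the share of all genes called in either direction under the same setting. Members called lower in PNs against controls were 2 (26.3%), and 8 with limma-voom (26.4%), 6 with limma-trend (25.8%), 9 in 1 fit of all libraries (29.4%), 0 with the muscle score (12.9%), 0 at an adjusted p under 0.01, and 0 to 4 with 1 library left out (0 without DRG3, 25.7%, DRG4, 14.9%, DRG5, 12.5%, or 1214, 22.6%, and 4 without 1206, 27.0%). In fast-growing PNs against controls the count of 10 (31.4%) became 2 with the muscle score (1.03%) and 9 without DRG5 (20.4%), and in slow-growing PNs it was 0 throughout. At an adjusted p under 0.01, *Cfd* lost its call in fast-growing PNs against controls (adjusted p = 0.0181, edgeR). In fast-growing against slow-growing PNs the count of 1 (1.27%) became 0 with RLE factors, upper-quartile factors, limma-voom, limma-trend or no filter (0.220% to 0.946%) or an adjusted p under 0.01, 9 with DESeq2 (10.2%), 5 in 1 fit of all libraries (2.60%), and 0 to 8 with 1 library left out (0.0128% to 7.65%). The cause was not tested. *Fabp7* in PNs against controls moved from 0.026 to -0.019 with RLE factors, -0.030 with upper-quartile factors, -0.019 with DESeq2, -0.12 with limma-voom, -0.19 with limma-trend and -0.31 to 0.61 with 1 library left out. Of 2340 counts of called genes in the other lists under alternatives, 231 moved by more than 1.5 times. No paired analysis was possible because the library numbers are not shared between groups. Counts of 0 to 6 limit *Lep* in fast-growing PNs.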

Other observations

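*Cidec*, the droplet fusion protein whose level followed *Adipoq* most closely, gave 0.850, 0.853 and 0.861 reads per *Adipoq* read in the 3 controls. It gave 0.86 to 1.84 in the 4 slow-growing PNs with at least 50 *Adipoq* counts and 0.82 to 1.12 in the 3 such fast-growing PNs. The highest ratio was in slow-growing PN 1198A, which also had the highest *Pparg* of the PNs at 53.3 CPM. *Pparg* per *Adipoq* read was 0.35 there and 0.13 to 0.19 in 1079, 1202 and 1206, but 0.44 and 0.51 in fast-growing PNs 1053 and 1214, whose *Cidec* ratios were 0.82 and 1.09.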
